A study of Mus musculus with 4 samples.

Results

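DNA replication and mitosis genes were followed in mouse embryonic fibroblasts undergoing the first days of factor-driven reprogramming. The set held 34 genes chosen by name, 15 with a role in DNA replication or S phase and 19 with a role in G2 and mitosis, and was read from probes whose RefSeq accession mapped to these symbols. Of the 34 members, 33 had a probe on the array, and all 33 entered the test, among 19171 genes tested in all. The remaining member, Rrm2, a subunit of ribonucleotide reductase, had no probe with a matched accession. All samples were embryonic fibroblasts of p53-null genotype, collected at day 5 after retroviral transduction, so both groups lacked p53 and both carried retroviral factors. One group (2 arrays) received OSK, which in this field stands for Oct4, Sox2 and Klf4, and the other (2 arrays) received the same factors plus Glis1, a Krüppel-like zinc finger protein. The labels call the OSK cells embryonic fibroblasts and the OSK+Glis1 cells induced pluripotent cells made from them. Whether replicate arrays stem from separate cultures is not stated in the labels. The p-values therefore reflect only how far these samples differ, and that spread may be technical.

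Replication genes act in sequence. Cdc6 and Cdt1 load the ring-shaped Mcm helicase onto origins in G1, geminin (Gmnn) holds Cdt1 in check, Cdc45 joins the helicase when origins fire, and the clamp Pcna and the nucleotide enzymes Tyms, Rrm1 and Rrm2 serve the moving fork. E2f1 is a transcription factor of the E2F family, which drives many of these genes at the entry into S phase. Mitotic genes are transcribed later, in G2, largely through Foxm1 and through promoters that carry a CHR (cell cycle genes homology region) together with boxes bound by NF-Y. Loss of p53 removes a brake on both sets, because p53 acts through p21 and the DREAM repressor complex to hold their promoters silent.

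Each value is the log2 processed intensity of a gene's probe minus the log2 of that array's 75th percentile, so 0 is the level of the 75th percentile of all spots. Differences are OSK+Glis1 minus OSK. The 4 arrays lay on 1 slide, between 59.9% and 65.2% of their spots were well above background and 0 were saturated. Precision is set by there being 2 arrays in each group. The Glis1 probe did not check the labels, since its level was -3.30 ± 0.051 (SD, n = 2) without and -3.51 ± 0.32 (SD, n = 2) with Glis1, so directions refer to the groups as labelled. Of the factors given to both groups, Pou5f1 (Oct4) was at -4.52 and -5.72 in OSK, where 1 of 2 arrays was well above background. In OSK+Glis1 it rose to -2.19 and -1.08 (limma adjusted p = 0.0194). Its probe passed the background filter through the OSK+Glis1 arrays alone, as did that of Sox2. Sox2 (1.12 ± 0.76 SE, not well above background on the OSK arrays) and Klf4 (0.14 ± 0.30 SE) did not pass the test. Whether these probes read the delivered factors or the cells' own transcripts was not tested. What part the unequal Pou5f1 signal had in the values below was not tested either. All 11 embryonic fibroblast markers examined were well above background on all 4 arrays. Their summed signal was 430 to 468 times the array's 75th percentile in OSK and 370 to 413 times in OSK+Glis1, and 2 of them, Col1a1 and Thy1, fell. Fn1 (0.78) and Col5a1 (0.69) were higher on both OSK+Glis1 arrays without passing the test. Col3a1 (-0.87), Vim (-0.12), Twist1 (-0.76) and Prrx1 (-0.92) were lower on both, also without passing it. Of 10 pluripotent cell markers 8 entered the test and 3 rose (Esrrb, Dppa3 and Lin28a, none well above background on the OSK arrays), while Nanog had no matched probe. These 3 passed the background filter through the OSK+Glis1 arrays alone. Of the others entered, Zfp42 (-1.68 ± 0.93 SE) and Dppa5a (-1.06 ± 0.58 SE) were lower and Tdgf1 (0.84 ± 0.42 SE) higher, without passing the test. Utf1 (-0.010) and Sall4 (0.015) hardly differed. The summed signal of the 8 pluripotent cell markers was 1.11 to 2.13 in OSK and 0.912 to 1.55 in OSK+Glis1, in the same unit. Dppa5a had the highest signal of the 8 on every array and weighed most in this sum. It was at 0.82 and -0.80 in OSK and at -1.37 and -0.73 in OSK+Glis1. Of 6 leukocyte markers Ptprc, Adgre1 and Csf1r did not pass the background filter and Cd68 had no probe, and of 4 endothelial markers Pecam1 and Cdh5 did not pass it, while the receptor gene Kdr rose and Tek was lower on both OSK+Glis1 arrays without passing the test (-0.85 ± 0.27 SE). The summed signal of the leukocyte markers measured was 0.0586 to 0.0871 in OSK and 0.0621 to 0.0690 in OSK+Glis1, and that of the endothelial markers 1.15 to 1.60 and 0.900 to 1.23. What part these differences in cell identity had in the values below was not tested. In RNA from whole cultures, a changed share of cycling cells and a changed amount of a transcript per cycling cell cannot be told apart.

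Most replication and mitosis genes were slightly higher with Glis1, and 1 member, the DNA topoisomerase gene Top2a, passed the test. Top2a rose 2.20-fold (limma adjusted p = 0.0214). Thus 1 of 33 measured members was called higher and 0 lower, where 14.2% of all genes tested were called (6.05% higher and 8.17% lower). The share of members called was thus below that of all genes here, but not under every setting: with an intensity trend in the fit 6 members were called (18.2%) beside 17.3% of all genes, and under normexp with flagged backgrounds replaced 5 (15.2%) beside 15.7%. At an unadjusted p under 0.05, 9 members were higher and 0 lower, against 14.3% of all genes higher and 29.2% in either direction. By direction alone, 30 of 33 members (90.9%) had a difference above 0, against 55.1% of all genes. On 26 members both OSK+Glis1 arrays lay above both OSK arrays, which held for 33.4% of all genes, and on 1 member (Rrm1) both lay below, which held for 26.6%. The median difference over the members was 0.36, a 1.28-fold level, and the median over all genes tested was 0.055. The members were also less scattered than genes at large, with quartiles of their differences at 0.29 and 0.50, where those of all genes were -0.29 and 0.35.

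**Figure D1:**
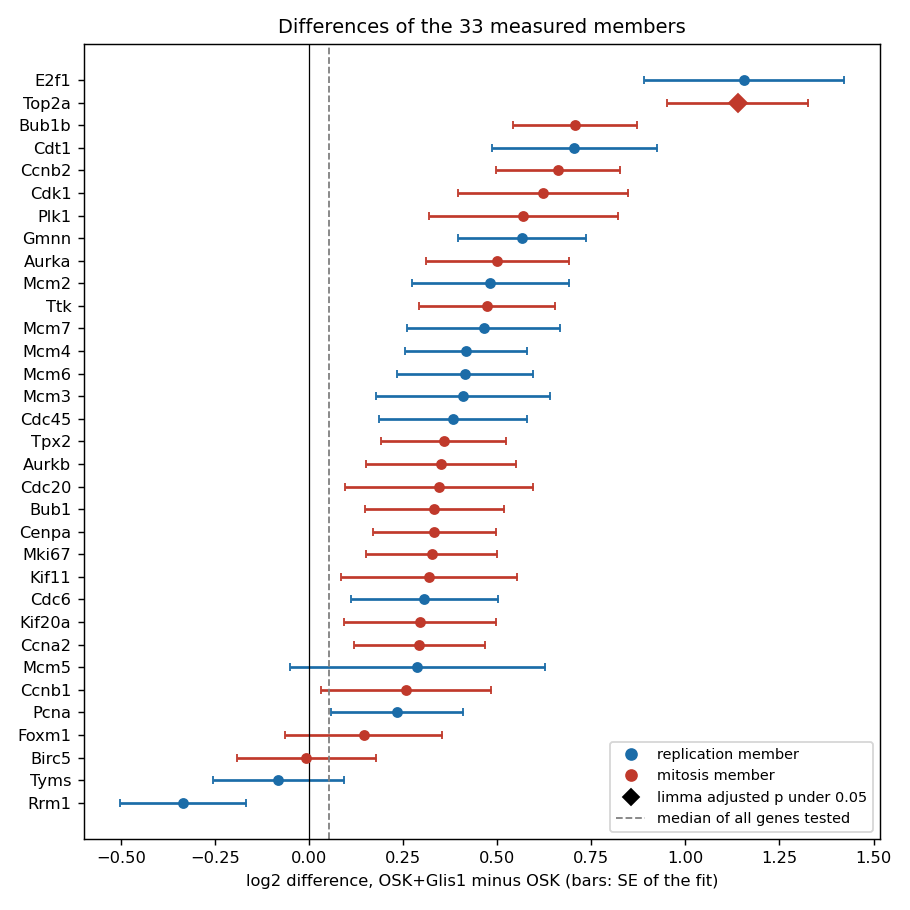
Log2 difference (OSK+Glis1 minus OSK, horizontal axis) of each of the 33 measured members, ordered by size, with the SE of the fit as bars and the median of all genes tested as a dashed line. E2f1 (1.16) and Top2a (1.14) stand at the top, Rrm1 (-0.33) at the bottom, and the diamond marks Top2a as the member with an adjusted p under 0.05.

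Most directions held under another centring. With each array centred on its median, the median difference of all genes was 0.19 in place of 0.055, and 32 of 33 members were then above 0. Relative to the median of all genes, which a change of centring cannot alter, the replication median lay 0.36 and the mitosis median 0.29 higher. With quantile normalization these distances were 0.28 and 0.25, and under the planned normexp correction 0.98 and 0.88. Leaving out OSK replicate 1 left 28 of 33 members above 0, and leaving out OSK+Glis1 replicate 1 left 32.

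The replication and the mitosis genes had similar median differences. The 14 measured replication members had a median difference of 0.41 and a range of -0.33 to 1.16, and the 19 mitosis members a median of 0.35 and a range of -0.0072 to 1.14. The medians differ by 0.066. The pooled SD between arrays of a group was 0.15 for the replication median and 0.10 for the mitosis median. Neither SD is the spread of the distance between the lists. Differences above 0 were found for 12 of 14 replication and 18 of 19 mitosis members. Arrays that did not overlap, with OSK+Glis1 higher, were found for 11 of 14 and 15 of 19, beside 33.4% of all genes. The difference between the lists was not tested. In the further genes of each pathway the order was turned: the median was 0.34 for 51 other replication genes and 0.45 for 57 other mitosis genes. Without OSK replicate 1 the replication median was 0.24 and the mitosis median 0.35, and without OSK+Glis1 replicate 1 they were 0.42 and 0.47, so in both cases the mitosis list had the larger median. Without OSK replicate 2 they were 0.57 and 0.41, and without OSK+Glis1 replicate 2 they were 0.41 and 0.33.

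**Figure D2:**
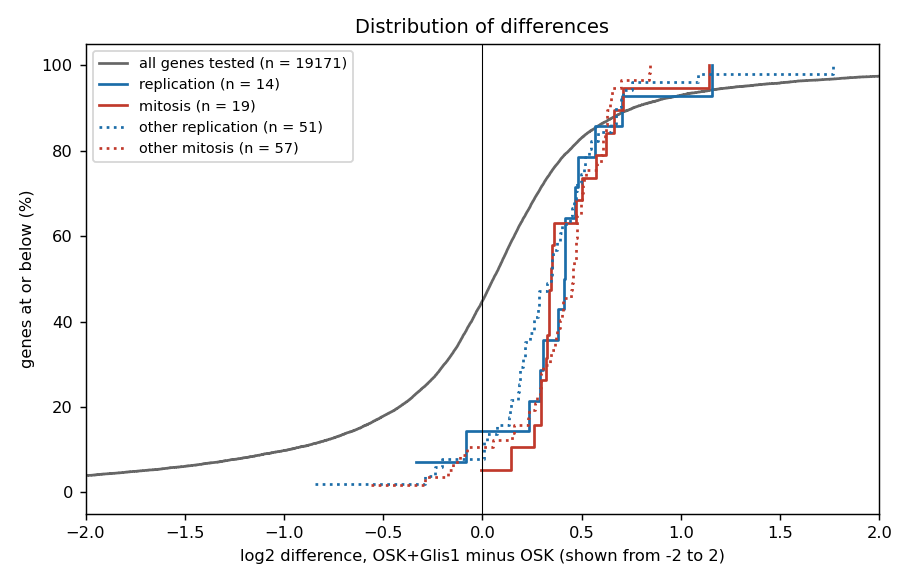
Cumulative share of genes (vertical axis, percent) at or below each log2 difference (horizontal axis, shown from -2 to 2) for all genes tested, for the members and for the other genes of each pathway. The 4 pathway curves lie close together and to the right of the curve of all genes at its middle (medians 0.34 to 0.45 against 0.055), and are steeper.

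Among the replication genes, the helicase subunits differed by similar amounts. All of Mcm2 to Mcm7 had differences above 0, from 0.29 to 0.48, with a median of 0.42, and none passed the test (limma adjusted p 0.174 to 0.637). Mcm2 was at 2.33 and 2.73 on OSK replicates 1 and 2, and at 2.95 and 3.07 on OSK+Glis1 replicates 1 and 2. For Mcm4 the OSK arrays lay at 4.65 and 4.58 and the OSK+Glis1 arrays at 5.03 and 5.04. Mcm6 gave 5.85 and 6.11 in OSK against 6.39 and 6.40 in OSK+Glis1. In these 3 subunits, and in Mcm3 and Mcm7, both OSK+Glis1 arrays were above both OSK arrays. Mcm5 was the exception: its OSK arrays lay at 3.49 and 4.41, and its OSK+Glis1 arrays, at 4.18 and 4.29, fell between them. The 6 Mcm differences were above 0 under every scaling and background alternative tried, while Mcm5 turned to -0.17 without OSK replicate 1.

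Of the genes that load and fire the helicase, Cdt1 and its inhibitor geminin differed by more than any Mcm subunit. Cdc45 differed by less than most of them, while the place of Cdc6 depended on the probe. Cdt1, the loading factor, was at 3.64 and 4.10 in OSK and at 4.57 and 4.59 in OSK+Glis1 (difference 0.70 ± 0.22 SE, limma adjusted p = 0.110). Geminin, the inhibitor of Cdt1, was at 5.13 and 5.17 in OSK and at 5.63 and 5.80 in OSK+Glis1 (0.57 ± 0.17 SE, limma adjusted p = 0.102). The factor and its inhibitor thus differed in the same direction, and neither passed the test. Cdc6, which acts with Cdt1, had a difference of 0.31 ± 0.20 SE, and Cdc45 one of 0.38 ± 0.20 SE, both with all OSK+Glis1 arrays above all OSK arrays. A further Cdc6 probe differed by 0.62, more than any Mcm subunit, and the mean of the Cdc6 probes by 0.46.

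E2f1 had a difference about as large as that of Top2a (1.16 and 1.14) and missed the threshold. Its probe was at 0.10 and 0.76 in OSK and at 1.62 and 1.55 in OSK+Glis1, a 2.23-fold difference (1.16 ± 0.27 SE, limma adjusted p = 0.0538). The groups did not overlap, and the distance between the OSK arrays (0.65) set the error. A further E2f1 probe differed by 1.21 in the same direction. Over the alternatives its adjusted p ranged from 0.0130 to 0.437, and it passed under 7 of the 14, among them the fit without OSK replicate 2 (1.48) but not the fit without OSK replicate 1 (0.83).

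The genes of the clamp and of nucleotide supply differed in both directions. Pcna, the sliding clamp, was at 5.32 and 5.43 in OSK and at 5.51 and 5.71 in OSK+Glis1 (0.23 ± 0.18 SE). Thymidylate synthase (Tyms) was at 3.96 and 3.99 in OSK, and the OSK+Glis1 arrays lay on either side, the lower at 3.79 (-0.082 ± 0.17 SE). Rrm1, the large subunit of ribonucleotide reductase, was at 4.44 and 4.48 against 4.06 and 4.20, lower on both OSK+Glis1 arrays (-0.33 ± 0.17 SE, limma adjusted p = 0.271). Thymidine kinase (Tk1), in the list of other replication genes and singled out after its value was seen, likewise lay lower on both OSK+Glis1 arrays (-0.20 ± 0.17 SE). None of these differences passed the test, and Tyms changed sign with median centring (0.056) and in the authors' deposited log2 values (0.071).

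**Figure D3:**
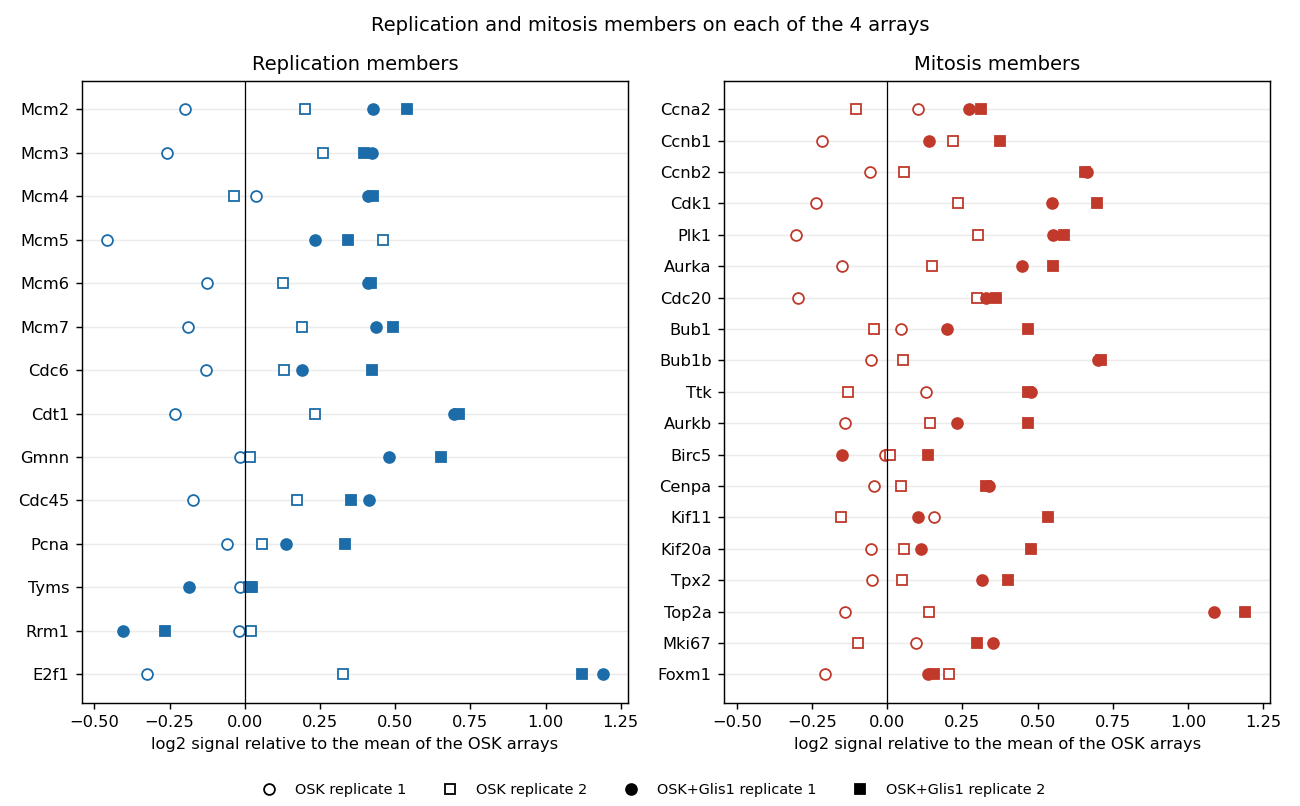
Log2 signal of every measured member on each array, relative to the mean of its OSK arrays (horizontal axis), for 14 replication members (left) and 19 mitosis members (right); open symbols are OSK, filled symbols OSK+Glis1, circles replicate 1 and squares replicate 2. Filled symbols lie to the right of both open symbols for 26 members, the filled symbols of Rrm1 lie to the left, and Mcm5 shows the widest gap between OSK arrays (0.92).

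Stretches of 3 replication promoters are shown, marked for the motifs that were counted in both sets of promoters. Each runs from 200 bases before to 30 bases after the start site, 5′ to 3′ on the strand of the gene, from RefSeq sequence of GRCm38.p6, and capitals mark E2F, CHR and NF-Y box matches. They are the replication members with the largest differences and groups without overlap whose start site lay within 50 bases of the annotated gene end. E2f1 was left out because the start site of its window lay 466 bases inside the annotated gene. Mcm7 was left out for the same reason, at 228 and 845 bases. Gmnn and Mcm4, whose differences were larger than that of Mcm6, had no window and were also left out. Cdt1 lies at chr8:122567815-122568044 (+ strand), Mcm2 at chr6:88898751-88898980 (- strand) and Mcm6 at chr1:128359676-128359905 (- strand).
Cdt1: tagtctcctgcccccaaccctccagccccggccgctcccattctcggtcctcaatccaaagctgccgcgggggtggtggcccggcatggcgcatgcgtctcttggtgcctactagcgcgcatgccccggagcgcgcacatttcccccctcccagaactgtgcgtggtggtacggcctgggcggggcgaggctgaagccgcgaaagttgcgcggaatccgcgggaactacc
Mcm2: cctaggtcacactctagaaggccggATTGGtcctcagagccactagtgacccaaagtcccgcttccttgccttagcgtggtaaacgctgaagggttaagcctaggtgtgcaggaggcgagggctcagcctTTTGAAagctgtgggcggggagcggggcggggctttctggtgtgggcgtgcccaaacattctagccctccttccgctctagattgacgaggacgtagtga
Mcm6: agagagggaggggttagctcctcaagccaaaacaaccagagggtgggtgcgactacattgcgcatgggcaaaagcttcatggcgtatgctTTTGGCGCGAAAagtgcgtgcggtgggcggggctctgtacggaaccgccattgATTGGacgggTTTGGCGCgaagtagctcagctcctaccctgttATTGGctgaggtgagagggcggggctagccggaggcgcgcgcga
The Mcm6 stretch held 3 E2F matches, 2 of them overlapping on opposite strands, and 2 NF-Y boxes. The Mcm2 stretch held 1 CHR match and 1 NF-Y box, and the Cdt1 stretch held no match, its E2F match beginning at position 33 after the start site, outside the bases printed.

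Among the mitosis genes, Top2a, whose enzyme untangles sister chromatids before they part, stood apart in size. It was at 2.02 and 2.30 on the OSK arrays and at 3.24 and 3.35 on the OSK+Glis1 arrays, with means of 2.16 ± 0.20 and 3.30 ± 0.072 (SD, n = 2 each). The groups were separated by a gap far wider than the distance between arrays of either group (difference 1.14 ± 0.19 SE, limma adjusted p = 0.0214). A further Top2a probe differed by 1.15 in the same direction. With any 1 of the 4 arrays left out, the difference stayed between 1.00 and 1.28, but the adjusted p lay between 0.0581 and 0.100 and the call was lost each time. It was also lost without a filter on dim probes (0.0809) and under the planned normexp background correction (0.396). Over all 14 alternatives its adjusted p ranged from 0.00282 to 0.396. Mki67, the proliferation marker Ki-67, differed far less, at 5.34 and 5.15 in OSK and 5.60 and 5.54 in OSK+Glis1 (0.33 ± 0.17 SE).

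The spindle checkpoint kinases were all higher on both OSK+Glis1 arrays, without passing the test. Bub1b (BubR1), which delays anaphase until chromosomes are attached, was at 1.65 and 1.75 in OSK and at 2.40 and 2.41 in OSK+Glis1 (0.71 ± 0.16 SE, limma adjusted p = 0.0551). Its arrays agreed closely within each group, and it passed the threshold with median centring (adjusted p = 0.0442), with a range of 0.0179 to 0.583 over the 14 alternatives. Ttk (Mps1), the kinase that starts checkpoint signalling, was at -1.77 and -2.02 against -1.42 and -1.43, and Bub1 at 1.31 and 1.22 against 1.46 and 1.73. A further Bub1 probe differed by 0.062.

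Of the mitotic cyclins and kinases, cyclin B2 was the most clearly separated. Ccnb2 was at 4.77 and 4.88 in OSK and at 5.49 and 5.48 in OSK+Glis1 (0.66 ± 0.16 SE, limma adjusted p = 0.0654). Cdk1, the kinase that cyclins A and B activate, was at 2.55 and 3.02 against 3.34 and 3.49 (0.62 ± 0.23 SE, limma adjusted p = 0.153). A further, dimmer Cdk1 probe differed by 0.12 and overlapped between groups, and the mean of the Cdk1 probes differed by 0.37. Cyclin B1 (Ccnb1) did not separate the groups, with OSK at 2.43 and 2.87 and OSK+Glis1 at 2.79 and 3.03, although its 3 probes all differed upwards (0.26, 0.37 and 0.46). Cyclin A2 (Ccna2) had a difference of 0.29 ± 0.17 SE. The polo kinase Plk1 was at 4.28 and 4.88 against 5.13 and 5.17, and the centrosomal kinase Aurka at 4.76 and 5.05 against 5.36 and 5.46. Cdc20, which turns on the anaphase-promoting complex, was at 5.20 and 5.79 against 5.82 and 5.86, with OSK replicate 2 close to the OSK+Glis1 arrays.

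The chromosomal passenger genes were uneven. Survivin (Birc5) had a difference of -0.0072 ± 0.19 SE, with OSK at 5.47 and 5.49 inside the OSK+Glis1 values of 5.33 and 5.62. Aurora B (Aurkb), its partner in the passenger complex, lay at 1.07 and 1.35 against 1.44 and 1.68. The centromeric histone gene Cenpa was at 2.36 and 2.45 against 2.75 and 2.74. Birc5 turned to 0.13 with median centring and 0.15 in the authors' deposited values, so it has no settled direction.

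The spindle genes and Foxm1 ended the list. The microtubule-organising factor Tpx2 was at 2.60 and 2.71 in OSK and at 2.97 and 3.06 in OSK+Glis1, and the kinesin Kif20a, which acts in cytokinesis, at 3.77 and 3.88 against 3.93 and 4.30. The bipolar-spindle kinesin Kif11 overlapped between groups, and its further probe differed by -0.16. Foxm1, the transcription factor of the G2 programme, was at 1.84 and 2.25 in OSK and at 2.18 and 2.20 in OSK+Glis1 (0.15 ± 0.21 SE, limma adjusted p = 0.704). The 2 transcription factors among the members thus gave unlike values, 1.16 for E2f1 and 0.15 for Foxm1, and the difference between them was not tested. Of 9 members with more than 1 probe, all probes differed in the same direction for 8.

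Stretches of 3 mitosis promoters are shown by the same rule and with the same marks. Top2a lies at chr11:99024160-99024389 (- strand), Bub1b at chr2:118598011-118598240 (+ strand) and Ccnb2 at chr9:70421525-70421754 (- strand).
Top2a: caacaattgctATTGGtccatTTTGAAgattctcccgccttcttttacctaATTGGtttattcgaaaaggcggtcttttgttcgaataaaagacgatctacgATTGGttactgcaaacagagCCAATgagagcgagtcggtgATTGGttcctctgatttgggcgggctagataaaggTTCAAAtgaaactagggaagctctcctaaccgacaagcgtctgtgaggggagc
Bub1b: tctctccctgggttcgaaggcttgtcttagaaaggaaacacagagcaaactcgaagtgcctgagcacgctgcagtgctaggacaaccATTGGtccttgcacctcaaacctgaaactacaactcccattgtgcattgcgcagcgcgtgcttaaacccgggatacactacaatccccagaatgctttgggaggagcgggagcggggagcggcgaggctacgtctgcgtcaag
Ccnb2: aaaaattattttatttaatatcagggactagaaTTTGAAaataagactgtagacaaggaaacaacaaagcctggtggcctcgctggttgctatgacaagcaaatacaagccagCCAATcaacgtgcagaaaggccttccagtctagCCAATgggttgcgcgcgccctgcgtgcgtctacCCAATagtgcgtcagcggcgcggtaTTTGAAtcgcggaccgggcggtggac
The Ccnb2 stretch held 3 NF-Y boxes spaced evenly before the start site, at -87, -54 and -21, and a CHR match at 5 after it, with a further CHR match at -167. The Top2a stretch held 5 NF-Y boxes and 2 CHR matches, and the Bub1b stretch 1 NF-Y box, its CHR match lying at 41 after the start site.

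Across the promoter windows, CHR and E2F matches were unevenly divided between the mitosis and the replication members. Each window ran from 250 bases before to 50 bases after a start site and was searched on both strands for the CHR (TTTGAA), for the NF-Y box (CCAAT) and for E2F (TTTCCCGC, TTTCGCGC, TTTGCCGC or TTTGGCGC), with overlapping matches kept. Windows were found for 13 of 15 replication members (14 windows, Mcm7 having 2) and for 14 of 19 mitosis members (14 windows). Gmnn, Mcm4, Aurkb, Ccna2, Foxm1, Kif20a and Tpx2 had no entry. The start sites of the Mcm7, E2f1, Cdc6, Aurka and Mki67 windows lay more than 50 bases inside the annotated gene. A CHR was present in 11 of 14 mitosis windows (78.6%) and 2 of 14 replication windows (14.3%), against 17.9% of all 32851 windows. E2F matches were present in 1 of 14 mitosis windows (7.14%), that of Cdk1, and 6 of 14 replication windows (42.9%), against 2.26% of all windows. Windows with an NF-Y box numbered 13 of 14 for mitosis and 10 of 14 for replication, against 37.4% of all. CHR and NF-Y box together were in 78.6% of the mitosis windows and 6.95% of all windows. Among the other genes of the pathways, a CHR was found in 56.9% of 58 mitosis windows and 18.2% of 55 replication windows, and E2F in 6.90% and 29.1%. These matches are descriptions of the letters, and neither binding nor a link to the expression values was tested.

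**Figure D4:**
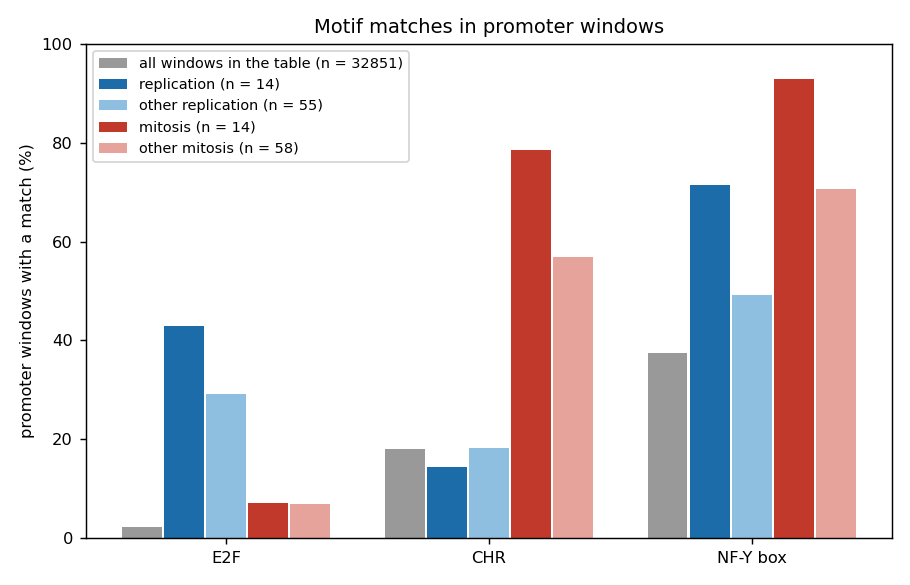
Share of promoter windows (vertical axis, percent) with at least 1 match to E2F, CHR or the NF-Y box, for all 32851 windows, for replication and mitosis members (14 windows each) and for the other genes of each pathway (55 and 58 windows). CHR matches stand at 78.6% in mitosis members against 14.3% in replication members, and E2F matches at 7.14% against 42.9%.

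Between the OSK arrays the replication members lay mostly to one side, and the mitosis members less so, a contrast that was not tested. OSK replicate 2 was above OSK replicate 1 in 13 of 14 replication members, with a median distance of 0.30, and in 14 of 19 mitosis members, with a median of 0.11. Over all genes tested it was above in 45.8%, with a median of -0.036. The widest distances were those of Mcm5 (0.92), E2f1 (0.65), Plk1 (0.60) and Cdc20 (0.59). Between the OSK+Glis1 arrays the members lay close together. Their median absolute distance was 0.090 for replication and 0.089 for mitosis members, against 0.20 over all genes. The same absolute measure between the OSK arrays was 0.30 for replication and 0.26 for mitosis members, against 0.25 over all genes. The 75th percentile of the intensity was 951 on OSK replicate 1 and 669 on OSK replicate 2, and 844 and 949 on OSK+Glis1 replicates 1 and 2. The part of this difference in brightness in the OSK values was not tested. Relative to each gene's own mean, the replication median was -0.35 and -0.042 on OSK replicates 1 and 2 and 0.20 and 0.22 on the OSK+Glis1 arrays, and the mitosis median was -0.28, -0.12, 0.15 and 0.29 in the same order.

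**Figure D5:**
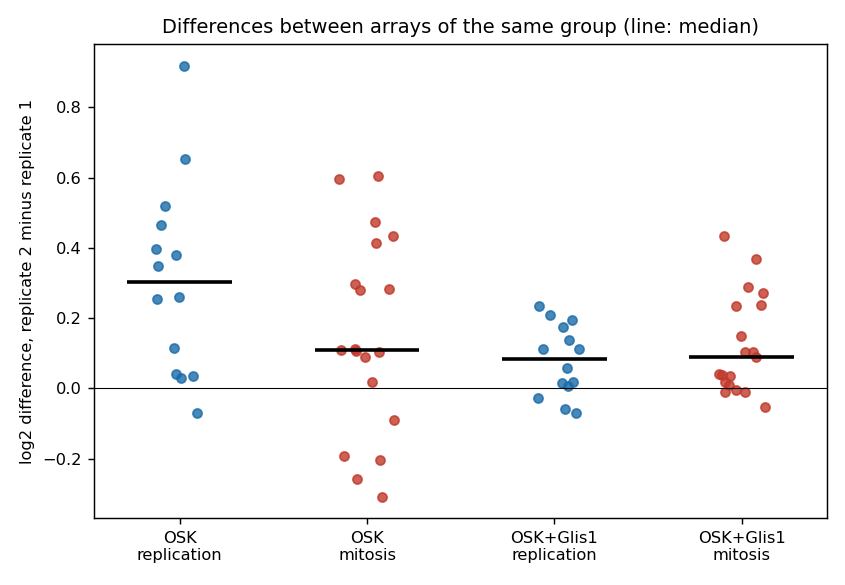
Log2 distance between arrays of the same group (replicate 2 minus replicate 1, vertical axis) for each replication and mitosis member, in OSK (left pair) and OSK+Glis1 (right pair), with the median as a line. The medians are 0.30 and 0.11 in OSK and 0.084 and 0.089 in OSK+Glis1.

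The other genes of both pathways also had medians above that of all genes (0.34 and 0.45 against 0.055). Of 51 measured other replication genes 2 rose and 0 fell, and of 57 other mitosis genes 2 rose and 0 fell, beside 6.05% of all genes called higher. At an unadjusted p under 0.05, 15 other replication genes were higher and 1 lower, and 21 other mitosis genes were higher and 0 lower. Of all genes, 14.3% were higher at that threshold and 29.2% differed in either direction. Differences above 0 were found for 47 of 51 other replication and 51 of 57 other mitosis genes, against 55.1% of all genes. Cyclin E1 (Ccne1), which drives the entry into S phase, had the largest difference of both lists, at 2.95 and 3.36 in OSK and 4.84 and 5.00 in OSK+Glis1 (1.77 ± 0.21 SE, limma adjusted p = 0.00943), and it kept its call with any 1 array left out, but not under the planned normexp correction (1481 of 19171 genes at an unadjusted p under 0.05, 0 after adjustment). Its close relative Ccne2 went the other way, at -2.11 and -1.36 against -2.71 and -2.45 (-0.84 ± 0.30 SE, limma adjusted p = 0.149), without passing the test. E2f8, a repressor of the E2F family, rose 2.12-fold, from -1.11 and -1.12 to 0.015 and -0.072 (limma adjusted p = 0.0168). Without any 1 array E2f8 lost its call, with adjusted p from 0.0712 to 0.0954. In the mitosis list the kinesin Kif20b rose from -0.40 and -0.33 to 0.45 and 0.50 (limma adjusted p = 0.0342), and Cdca2, a chromatin-bound partner of protein phosphatase 1, from 1.89 and 2.03 to 2.80 and 2.81 (limma adjusted p = 0.0355). Both lost their calls with any 1 array left out. Mad2l1, the Mad2 protein of the spindle checkpoint, was at 1.52 and 1.42 against 2.10 and 2.23 (0.70 ± 0.17 SE, limma adjusted p = 0.0609). Rpa1, Kif14, Kifc1, Prc1 and Pkmyt1 had no probe with a matched accession.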

How the data were processed

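Per the labels, Cy3-labelled total RNA of each sample was run on a one-colour Agilent array. The authors deposited 1 scanner table of intensity values per array, written by Agilent Feature Extraction 10.7.3.1 and annotated to mm9, per the file headers. Its processed intensity has the local background removed and carries no normalization across arrays, per the file headers. A series-wide table of log2 values deposited by the authors names no tool. It equals log2 of the processed signal minus 1 constant per array for 99.8% of probes within 0.01, with column medians of 3.1e-06 and -0.00016 (OSK replicates 1, 2) and 0.000216 and 4.8e-05 (OSK+Glis1 replicates 1, 2), so its scale, centring and direction are known.

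Here log2 processed intensity minus the array's 75th percentile was used. Control spots and outlier flags were left out, spots of a probe were averaged, 71 of 41174 probes without a value on every array were dropped, and a probe entered if 1 group had it well above background on both of its arrays. Symbols came from a RefSeq table of GRCm38.p6 matched by accession (26933 probes), and a gene was its probe with the highest mean (19171 genes). Groups were compared with limma 3.58.1 in R 4.3.3 (lmFit and eBayes, two-sided, 2 residual and 2.82 prior degrees of freedom, Benjamini-Hochberg over all genes, threshold 0.05). The steps were tested on simulated data. The members and lists were chosen with earlier results of these data known. All members are named; of the other pathway genes, those past the threshold and the 3 largest differences per list without overlap. The limit of 50 bases on the promoter start sites was set after the E2f1 window was seen.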

Additional observations from a re-analysis of the deposited data

How the results depend on the processing

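Over 14 alternatives, 483 of 546 values of 39 named genes kept their direction and their side of the threshold. Part of this was fixed in advance. The intensity trend, the replicate block and the changed background filters left a named gene's difference as it was, so its direction could not change. Most named genes were also not called in the reported fit. The members called numbered 1 as reported (beside 14.2% of all genes), 3 with median centring (15.6%), 5 under normexp after replacing flagged local backgrounds, chosen after seeing the data (15.7%), 4 in the authors' deposited values (15.8%), 3 with genes well above background on all 4 arrays (13.0%), 2 with the mean of all probes (14.3%) and 6 with an intensity trend (17.3%). In contrast, 0 were called under the planned normexp correction (0% of all genes) and 0 without a filter on dim probes (4.67%) (limma; at an unadjusted p under 0.05, 2 replication and 4 mitosis members under the first and 2 and 3 under the second). Quantile normalization changed none of the counts given here. In the same order of settings, the replication members called were 0 as reported, then 1, 2, 1, 1, 1 and 3, and 0 under both last settings, and the mitosis members called were 1, then 2, 3, 3, 2, 1 and 3, and 0 under both. The other replication genes called were 2, then 5, 7, 5, 2, 2 and 6, with 0 under planned normexp and 1 without a filter, and the other mitosis genes 2, then 4, 5, 5, 2, 1 and 6, with 0 under both. With 1 array left out in turn, a smaller share of all genes was called each time than with all 4 arrays. Calls lost in those fits are therefore not particular to the genes named here. The replicate numbers share no labelled batch (correlation of same-numbered deviations 0.0094). With the replicate number as a block 1 member, 0 replication members, 1 mitosis member, 2 other replication genes and 0 other mitosis genes were called (12 at an unadjusted p under 0.05), beside 13.8% of all genes. The replication median was 0.73 under planned normexp and 0.24 to 0.57 with 1 array left out. The mitosis median was 0.48 with median centring, 0.63 under planned normexp, 0.50 in the deposited values and 0.33 to 0.47 with 1 array left out. Under planned normexp, the signal minus local background reached -52309 intensity units on OSK replicate 2, and 0 genes passed (1481 at an unadjusted p under 0.05).

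Differences of 6 genes reversed: Mcm5 to -0.17 without OSK replicate 1 (-0.17 to 0.75 with 1 array left out); Tyms to 0.056 with median centring, 0.27 under planned normexp, 0.071 in the deposited values and 0.023 without OSK+Glis1 replicate 1 (-0.19 to 0.023 with 1 array left out); Rrm1 to 0.037 and Ttk to -0.15 under planned normexp; Birc5 to 0.13 with median centring, 0.33 under planned normexp, 0.15 in the deposited values, 0.14 without OSK+Glis1 replicate 1 and 0.0013 without OSK replicate 2 (-0.15 to 0.14); and Foxm1 to -0.061 without OSK replicate 1 (-0.061 to 0.35). The cause was not tested. With an arm of 1 array, that array is assumed to vary like the other group.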
